A study of Drosophila melanogaster with 13 samples.

Results

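The mitochondrial ribosomal protein genes of Drosophila melanogaster were taken as every gene whose FlyBase symbol starts with mRpL (large subunit) or mRpS (small subunit) followed by a digit. Of 73 annotated genes that fit this rule, 71 were matched among 17370 counted genes, 47 named for the large and 24 for the small subunit. mRpS5 and mRpS34 were not analysed here. The 71 genes lie on every large chromosome arm, 12 on 2L, 12 on 2R, 15 on 3L, 21 on 3R and 11 on X. The filter on low counts left 70 of them, all 11 X-linked genes and 59 of 60 autosomal genes, among 10026 genes tested.

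Mitochondria translate the few proteins encoded in their own DNA on ribosomes that resemble those of bacteria. The ribosomal RNAs of these ribosomes come from mitochondrial DNA, but every protein is encoded in the nucleus, made in the cytosol and imported. The products are core subunits of the respiratory chain and ATP synthase, so that loss of a mitochondrial ribosomal protein shows most in tissues of high energy demand such as muscle and brain. In flies the classic example is tko, which encodes the small subunit protein S12 under a name outside the rule and whose mutant is sensitive to mechanical shock.

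Poly(A) RNA was read from heads of flies 2 to 6 h after eclosion, from 3 isofemale lines (SD2, SD3 and SD6), each founded by a wild-caught female and carrying no transgene named in the labels. Larvae of each line grew on 1 of 2 foods, HPS with a protein/carbohydrate ratio of 0.43 and LPS with 0.1. The series asks how larval diet bears on the adult nervous system. Each combination of line, diet and sex is 1 RNA pool of 70 to 80 heads, which gives 12 samples: 6 per diet, 6 per sex and 4 per line. Larvae of each line and diet grew in several vials, counted per line and diet, so both sexes may come from the same vials. Nothing in the sample descriptions says that a combination was pooled more than once. A p-value here therefore reflects only how far the pools spread.

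Gene reads per library ranged from 7.84 M to 25.3 M, and the 2 libraries of the male LPS SD2 pool were summed to 27.5 M. On 500 genes that set SD3 at 0 and SD6 at 1, a value near 1 (1.004) came from the LPS SD3 male label and a value near 0 (0.0229) from the LPS SD6 male label, so that both libraries go against their labels. Line comparisons therefore used the other 10 samples, and diet and sex comparisons are given for 12 samples as labelled and for those 10. Markers of neurons, glia, photoreceptors, fat body and muscle were detected in every sample, while the germ line markers vas, aub, osk, bam and nanos summed to 1.24 to 3.47 CPM (gene reads of a gene per 1000000 gene reads, TMM-scaled). lncRNA:roX1, a male-specific RNA of dosage compensation, was at 644 to 972 CPM in males and 0.530 to 3.12 CPM in females.

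By their median, the 70 genes lay above the median gene in level and far below the cytosolic ribosomal protein genes. Together they took 0.132% to 0.189% of the gene reads of a library. Per kb of merged exon the median level was 24.2 CPM for the large subunit and 23.4 CPM for the small subunit genes, against 12.4 CPM for all genes tested and 701 CPM for the cytosolic ribosomal protein genes.

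mRpL28, a large subunit protein shared with bacteria, had the highest level per length, 80.5 ± 7.74 CPM per kb (SD, n = 12). mRpS9, a small subunit protein whose bacterial relative reaches the decoding site, followed at 58.8 ± 8.26 CPM per kb. mRpL24, which assembles early onto the ribosomal RNA in bacteria, stood at 50.3 ± 3.35 CPM per kb. The lowest 3 of the 70 genes were mRpL21 at 7.48 ± 1.58, mRpS18B at 12.5 ± 2.81 and mRpL11 at 13.6 ± 2.24 CPM per kb. mRpL21 is a conserved large subunit protein and mRpL11 sits at the base of the stalk that binds translation factors. mRpS18B is 1 of 3 genes for variants of protein S18 and also had the widest spread over the samples, with an SD of 0.36 on the log2 CPM scale. The narrowest was mRpL24 at 0.10, and the median SD of the 70 genes, 0.20, lay close to the median of all genes tested, 0.21.

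mRpL53 was the gene that failed the filter, with 0 reads in all 13 libraries. In the Ensembl BDGP6 annotation all bases of its exons are shared on the same strand with CG33155. Reads in such a shared stretch are ambiguous to a counter that takes unique assignments, and CG33155 itself had 3 to 49 reads per library, so the count of 0 is not a measure of mRpL53 expression. A floor of 3 reads corresponds to 0.119 to 0.382 CPM per library, and covers counting error only. mRpL13 shares 35.2% of its exon bases with CG10602, and mRpS14 shares 3.76% with CG32533, so the counts of both may be low by the reads of the shared bases.

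The genes are short and often share a start region with a neighbour. Their merged exons span 327 to 2078 bases, with a median of 783 bases against 1732 bases for the 13728 protein-coding genes. The start of 51 of the 71 genes (71.8%) lies within 500 bases of the start of a protein-coding gene on the opposite strand, against 24.7% of all protein-coding genes. Examples are mRpL18 and Taz, 20 bases apart, and mRpL52 and CG12107, 50 bases apart.

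The level of most members moved together from sample to sample. The correlation of a gene's log2 CPM with the median of the other members over the 12 samples had a median of 0.71, and it was positive for 68 of 70 genes and above 0.5 for 51. mRpL39, a large subunit protein peculiar to mitochondria, was highest at 0.92. mRpL37 at −0.32 and mRpS28 at −0.23 were the only negative values. The samples share scaling and lines, so these correlations are descriptions. How many of all genes tested correlate in this way with the members' median was not counted. The counts therefore cannot show an excess among the members.

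**Figure D1:**
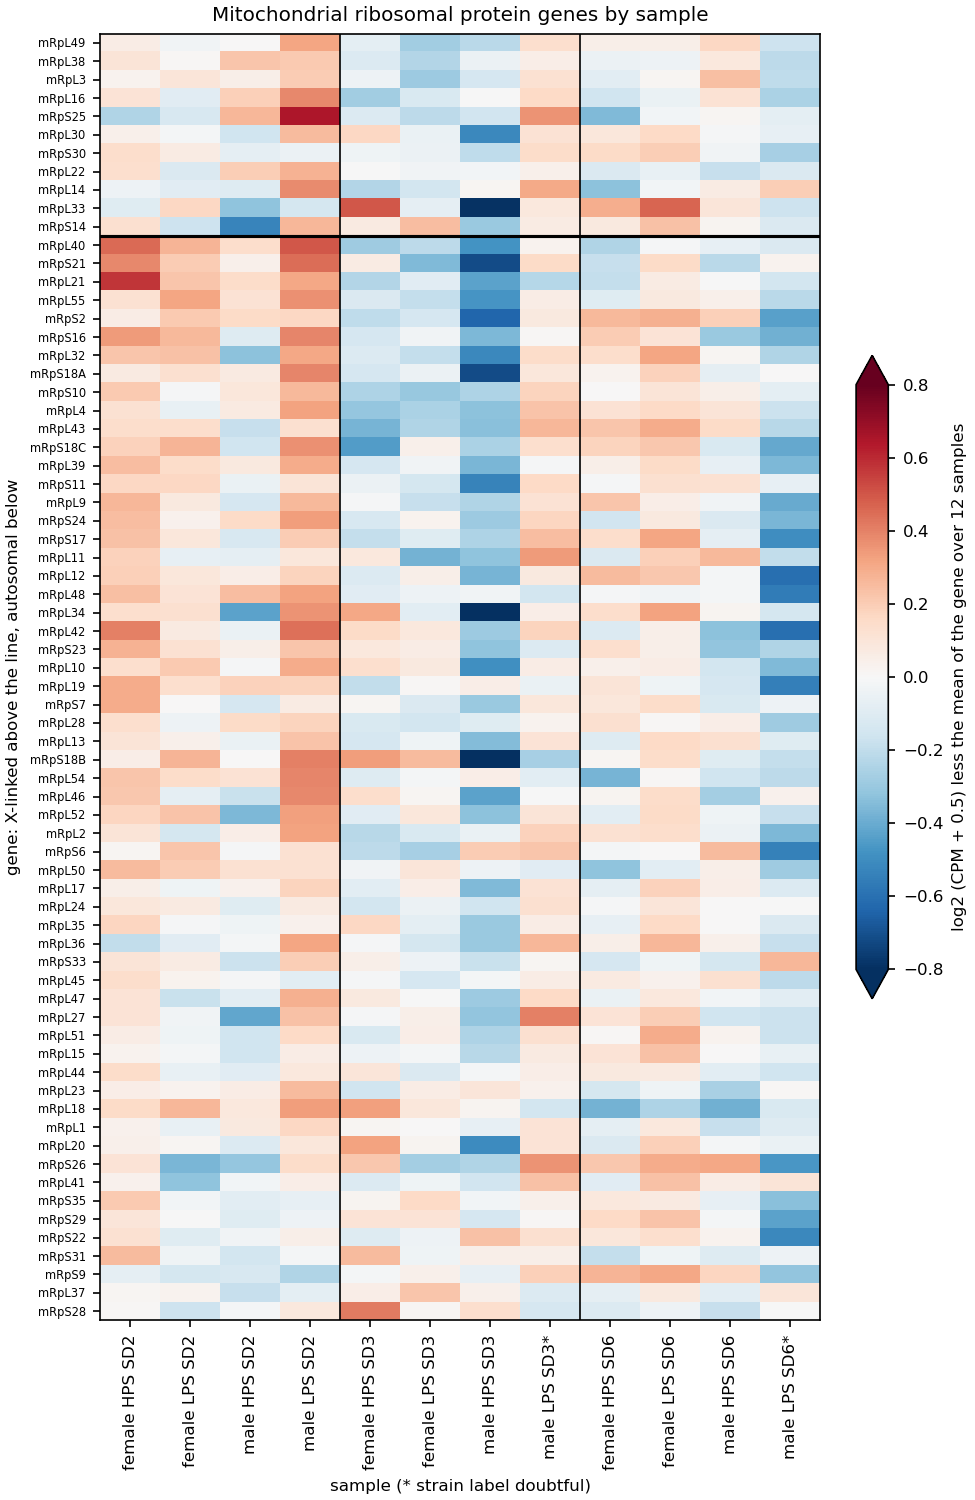
Each row is 1 of the 70 genes and each column 1 of the 12 samples, coloured by log2 (CPM + 0.5) less the mean of the gene over the samples, with the 11 X-linked genes above the line. Of the 70 genes, 65 lie above their mean in HPS SD2 females and 62 in LPS SD2 males, against 10 in HPS SD3 males and 8 in the library labelled male LPS SD6.

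Between lines SD3 and SD2, 18 of the 70 genes were lower in SD3, 0 were higher and the other 52 did not pass (edgeR quasi-likelihood test, adjusted p below 0.05), where 10.5% of all genes tested were lower and 23.2% changed in either direction. The count of 18 rests on single samples and was 3 without the female HPS SD2 sample, as it was with 12 samples as labelled. In whole heads, fewer cells of a type and less RNA per cell cannot be told apart. The log2 difference was below 0 for 62 of 70 genes, with a median of −0.21 against −0.01 over all genes. The median was −0.21 for the 46 large and −0.21 for the 24 small subunit genes, of which 11 and 7 passed. Among X-linked members 10 of 11 were below 0 with a median of −0.17, and 1 passed, mRpL38. SD3 samples lay wholly below SD2 samples for 3 of 11 X-linked members, where 9.63% of all X-linked genes did. For the line comparisons the share called and the median over all X-linked genes are not given. The X-linked counts and medians there cannot be set against them.

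mRpL40, a large subunit protein with no bacterial counterpart fell the most (3R:11407918-11408756, plus strand, BDGP6). Its level in SD2 was 22.0 CPM in HPS females, 19.3 in LPS females, 17.6 in HPS males and 22.7 in LPS males. In SD3 it was 13.0 CPM in HPS females, 13.7 in LPS females and 11.3 in HPS males. Every SD3 sample lay below every SD2 sample. The log2 difference was −0.68 ± 0.12 (SE, edgeR adjusted p = 0.00111), and the call was kept when any single sample was left out. SD6 samples held 13.4, 15.8 and 15.2 CPM, also below every SD2 sample, a difference from SD2 of −0.45 ± 0.11 (edgeR adjusted p = 0.00912) that missed the threshold without the female HPS SD2 or the female LPS SD6 sample.

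mRpS2, a conserved protein on the solvent side of the small subunit (2L:4849439-4850419, minus strand), was low in SD3 alone. In SD2 it was 19.9 CPM in HPS females, 22.1 in LPS females, 21.2 in HPS males and 21.4 in LPS males, against 16.5, 17.3 and 12.1 CPM in SD3 HPS females, LPS females and HPS males. In SD6 it was 22.9, 23.4 and 21.8 CPM in the same order. The SD3 samples lay below all the others, with −0.46 ± 0.10 against SD2 (edgeR adjusted p = 0.00647), and SD6 was 0.56 ± 0.11 above SD3 (edgeR adjusted p = 0.00262). The 2 doubtful libraries, left out of this test, had 20.2 CPM where the label says SD3 and 14.0 CPM where it says SD6.

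mRpL21 fell by 0.60 on the log2 scale in SD3 against SD2 (edgeR adjusted p = 0.00568), from 13.8 to 18.8 CPM over the 4 SD2 samples to 9.12 to 11.7 CPM over the 3 SD3 samples. mRpL55, a mitochondria-specific protein of the large subunit that fly larvae need to develop, fell by 0.48 (edgeR adjusted p = 0.00529). mRpL4, which lines the tunnel that the new chain leaves through, fell by 0.40 (edgeR adjusted p = 0.0103). The SD2 and SD3 samples did not overlap for any of these 3 genes. mRpS10, a protein of the small subunit's head, fell by 0.42 and mRpL43, a protein with no bacterial counterpart, fell by 0.40 (edgeR adjusted p = 0.0101 and 0.0115). mRpS21 fell by 0.65, mRpL39 by 0.37 and mRpS16, a conserved small subunit protein whose human gene is mutated in a respiratory chain disorder, by 0.45 (edgeR adjusted p = 0.0118, 0.0122 and 0.0199). The other 8 called genes were mRpL38, mRpS11, mRpL28, mRpS18A, mRpL32, mRpL12, mRpL48 and mRpS18C, with edgeR adjusted p from 0.0214 to 0.0492.

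SD3 samples lay wholly below SD2 samples for 19 of 70 genes and wholly above for 2, mRpS9 and mRpL37, where 12.6% and 13.6% of all genes did. Some of these calls rest on single samples: the count was 3 without the female HPS SD2, 4 without the female LPS SD3, 6 without the male HPS SD3 and 11 without the male LPS SD2 sample. Besides mRpL40, mRpS2 alone among the 10 genes of smallest p kept its call when any single sample was left out. Depth was lowest in the SD3 samples, at 7.84 M and 8.63 M gene reads for HPS females and HPS males. After thinning every sample to the shallowest total 14 genes were lower and 0 higher. For these altered fits the share of all genes called is not given.

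**Figure D2:**
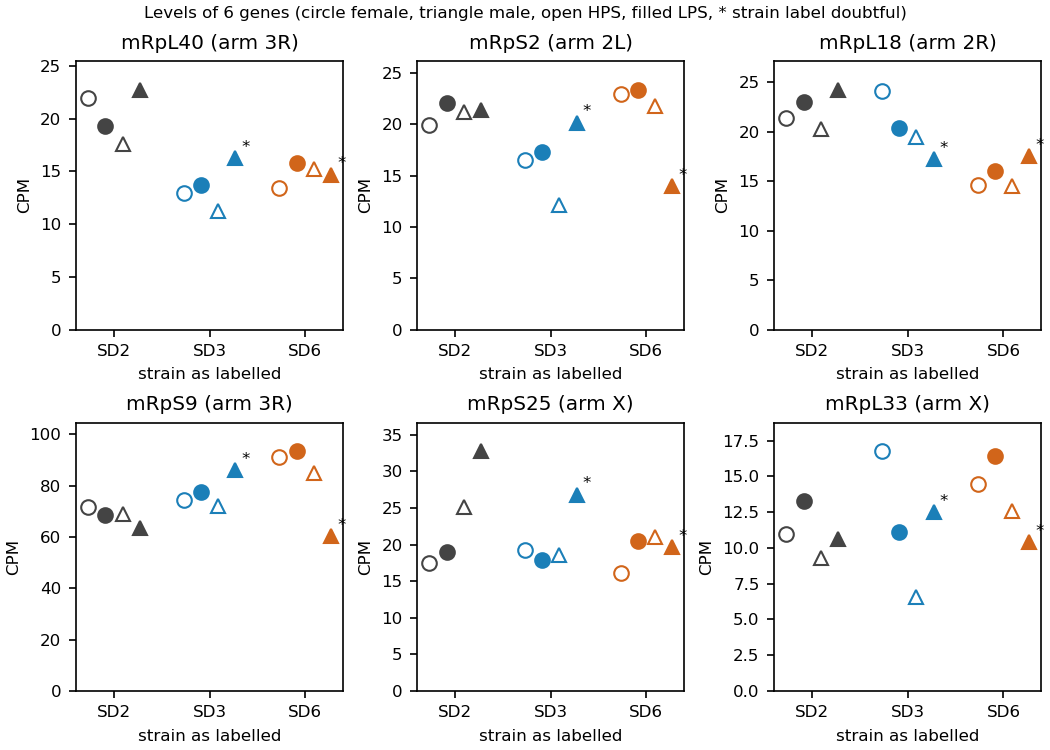
Levels in CPM of 6 members by line, 1 point per sample, with circles for females, triangles for males, open symbols for HPS and filled symbols for LPS; an asterisk marks the libraries of doubtful strain. mRpL40 is lower in SD3 and SD6 than in SD2, mRpS2 is lowest in SD3, mRpL18 is lowest and mRpS9 highest in SD6, and the male and female values of mRpS25 and mRpL33 overlap.

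Line SD6 was compared with line SD3, whose samples also enter the comparison above. Of 70 genes 7 were higher in SD6 and 1 lower (edgeR adjusted p below 0.05), where 9.95% of all genes tested were higher, 10.2% lower and 20.2% either, so that the share of members called higher lies at that of all genes. The log2 difference was above 0 for 58 of 70 genes, with a median of 0.18 against 0.01 over all genes, and for 10 of 11 X-linked genes with a median of 0.13. The higher genes were mRpL43 (0.56 ± 0.10, edgeR adjusted p = 0.00201), mRpS2, mRpL4 (0.43 ± 0.10, edgeR adjusted p = 0.00978), mRpS9, mRpL32, mRpS10 and mRpL12. mRpL12 encodes the stalk protein that recruits elongation factors, and mRpL32 a protein cut to its mature form by a mitochondrial protease before it joins the ribosome.

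mRpL18, which in bacteria carries the 5S ribosomal RNA, went the other way. It lay at 21.4, 23.1, 20.3 and 24.2 CPM in SD2 and 24.2, 20.4 and 19.4 CPM in SD3, but at 14.6, 16.0 and 14.6 CPM in SD6. No SD6 sample reached the lowest sample of either other line. The libraries labelled male LPS SD3 and male LPS SD6 were close to each other, at 17.2 and 17.6 CPM. SD6 was −0.49 ± 0.11 from SD3 (edgeR adjusted p = 0.00628) and −0.56 ± 0.10 from SD2 (edgeR adjusted p = 0.00123), and both calls were kept when any single sample was left out.

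mRpS9 (3R:7889277-7902667, minus strand) was highest in SD6, at 91.1 CPM in HPS females, 93.5 in LPS females and 84.8 in HPS males. SD3 had 74.4, 77.6 and 72.0 CPM and SD2 71.7, 68.4, 68.9 and 63.6 CPM. Among these 10 samples the 3 lines formed 3 separate ranges. Of the doubtful libraries, the LPS SD3 male label held 86.1 CPM and the LPS SD6 male label 60.5 CPM, below every other sample. SD6 was 0.38 ± 0.06 above SD2 (edgeR adjusted p = 0.000842) and 0.26 ± 0.07 above SD3 (edgeR adjusted p = 0.0151), the latter lost without the female LPS SD3 or the female LPS SD6 sample.

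The count for SD6 against SD3 was 15 without the female HPS SD3 sample, 4 without the female LPS SD3 or the female LPS SD6 sample, and 5 without the female HPS SD6, the male HPS SD3 or the male HPS SD6 sample. With 12 samples as labelled it was 0, as it was for all genes, with 1 member at an unadjusted p below 0.05, and the median was 0.05. mRpL12, mRpL32 and mRpS10 each lost the call in 5 or more of the single omissions, while mRpL43, mRpS2, mRpL4 and mRpL18 kept it in all of them. SD6 samples lay wholly above SD3 samples for 20 of 70 genes and wholly below for 4, where 16.2% and 15.6% of all genes did.

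SD6 and SD2 differed in few of these genes. In SD6 1 gene was higher (mRpS9) and 4 lower (mRpL18, mRpL40, mRpL54 and mRpL21; edgeR adjusted p below 0.05), where 12.1% of all genes tested were higher and 10.3% lower, 22.4% in all. SD6 samples lay wholly above SD2 samples for 3 of 70 genes and wholly below for 9, where 14.8% and 13.4% of all genes did. The median of the 70 genes was −0.03, with 29 above 0, against 0.00 over all genes. mRpL54, a mitochondria-specific large subunit protein, differed by −0.36 ± 0.11 (edgeR adjusted p = 0.0316) and mRpL21 by −0.39 ± 0.12 (edgeR adjusted p = 0.0365). The count was 2 without the female HPS SD2, 3 without the female HPS SD6 or the female LPS SD6, and 10 without the female LPS SD2 sample. mRpL54 lost its call without the female HPS SD2, the female HPS SD6, the male HPS SD6 or the male LPS SD2 sample, and mRpL21 without the female HPS SD2, the female HPS SD6, the female LPS SD6 or the male LPS SD2 sample.

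**Figure D3:**
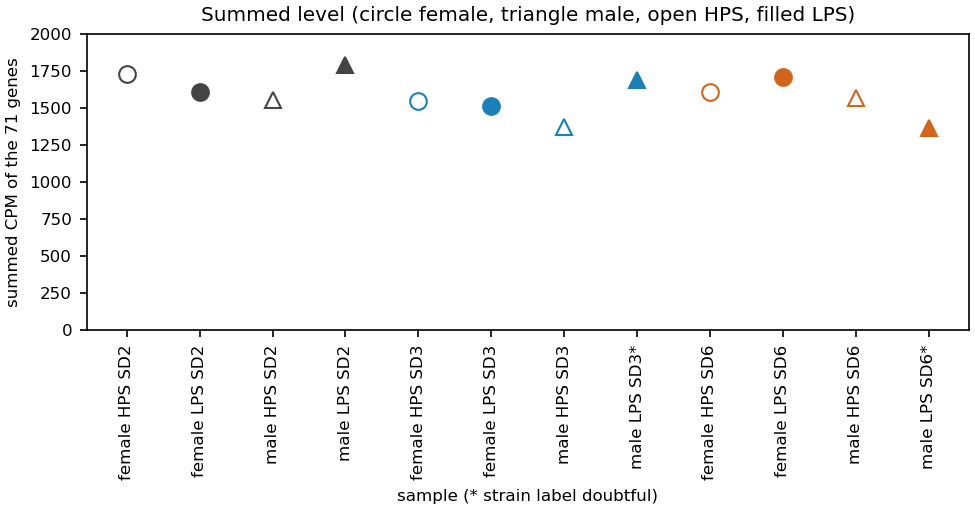
Summed CPM of the 71 genes in each sample, from 0, with circles for females, triangles for males, open symbols for HPS and filled symbols for LPS; an asterisk marks the libraries of doubtful strain. The 3 SD3 samples with undoubted labels lie between 1372 and 1543 CPM and the 4 SD2 samples between 1554 and 1792 CPM.

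Summed over the members, SD2 averaged 1670 ± 110 CPM (SD, n = 4), SD3 1477 ± 92.2 CPM (n = 3) and SD6 1627 ± 72.0 CPM (n = 3). Every SD3 sample lay below every SD2 and SD6 sample. The library labelled male LPS SD3 held 1685 CPM and the library labelled male LPS SD6 1365 CPM.

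Other genes of mitochondrial translation were set beside these. Of 4 ribosomal or ribosome-linked genes named outside the rule, 3 were lower in SD3 than in SD2, namely tko (−0.38 ± 0.11, edgeR adjusted p = 0.0265), bonsai, the fly gene for protein S15 (−0.30 ± 0.08, edgeR adjusted p = 0.0146), and CG6094 (−0.76 ± 0.12, edgeR adjusted p = 0.000708). Mitochondrial translation factors had a median of −0.14, with 7 of 10 below 0 and 1 called, mIF2, which was higher. Of 15 mitochondrial aminoacyl-tRNA synthetase genes, 12 were below 0, 4 were called lower and 1 higher. The cytosolic ribosomal protein genes had a median of 0.01 with 1 of 79 called in each direction, and the oxidative phosphorylation subunits a median of −0.02 with 2 of 71 called lower. Genes of mitochondrial DNA and RNA upkeep had a median of −0.04 with 1 of 14 called, and 12 regulators of growth and mitochondrial genes a median of 0.00 with 1 called. Whether the members differ from these lists was not tested.

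Among the regulators, Ets97D, the fly counterpart of a nuclear respiratory factor subunit, differed between SD3 and SD2 by 0.06 ± 0.12, ewg by 0.02 ± 0.07, Myc by 0.01 ± 0.13, Dref by 0.00 ± 0.08 and srl, the fly PGC-1 coactivator, by −0.13 ± 0.11, none past the threshold. For SD6 against SD2, srl differed by −0.41 ± 0.11 (edgeR adjusted p = 0.0146) and Myc by −0.39 ± 0.13 (edgeR adjusted p = 0.0475). Of the genes that start head to head with a member, 49 were tested, 2 were higher and 7 lower in SD3 than in SD2, with a median of −0.06. mRpL52 did not pass in this comparison, while its neighbour CG12107 fell by 0.36 (edgeR adjusted p = 0.0111).

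Cell type markers also moved between lines. All 6 muscle markers (Mhc, up, wupA, Act88F, Mlc2 and TpnC73F) were above 0 in SD3 against SD2, 2 of them called, and all 6 were below 0 in SD6 against SD3, 4 of them called. Their summed level was 9651 to 16847 CPM in SD2, 12713 to 16544 CPM in SD3 and 10720 to 15594 CPM in SD6, and no muscle marker was at 0. Fat body markers were above 0 for 3 of 5 in SD3 against SD2, with 3 called higher and 1 lower, and photoreceptor markers for 4 of 5, with 2 called higher. Their part in the line differences of the members was not tested.

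Males and females did not differ at the threshold in any of the 70 genes in the 12 samples. Of 10026 genes 3.04% were called by sex, 8.46% of X-linked and 1.98% of autosomal genes, and 0 of 70 members (edgeR). An unadjusted p below 0.05 was found for 8 members, and DESeq2 called 2, mRpS25 and mRpL14. Counts at an unadjusted p, here and below, are given without the share of all genes, so they cannot show an excess among the members. No member had males wholly above or below females, where 0.967% and 1.32% of all genes did. The log2 difference of males against females was below 0 for 50 of 70 genes, with a median of −0.07 against 0.01 over all genes. In this fit the medians of X-linked and autosomal members differed in sign. Of the X-linked genes 7 of 11 were above 0 with a median of 0.10, against 0.00 over all X-linked genes. Of the autosomal genes 13 of 59 were above 0 with a median of −0.07, against 0.01 over all autosomal genes. Within single pairs of samples, given below, both medians mostly had the same sign. Without the male LPS SD2 sample the X-linked median was 0.038, and without the library labelled male LPS SD6 it was 0.16 and the autosomal median −0.035. The autosomal median was −0.12 without the library labelled male LPS SD3. Males carry a single X and raise its output by dosage compensation.

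**Figure D4:**
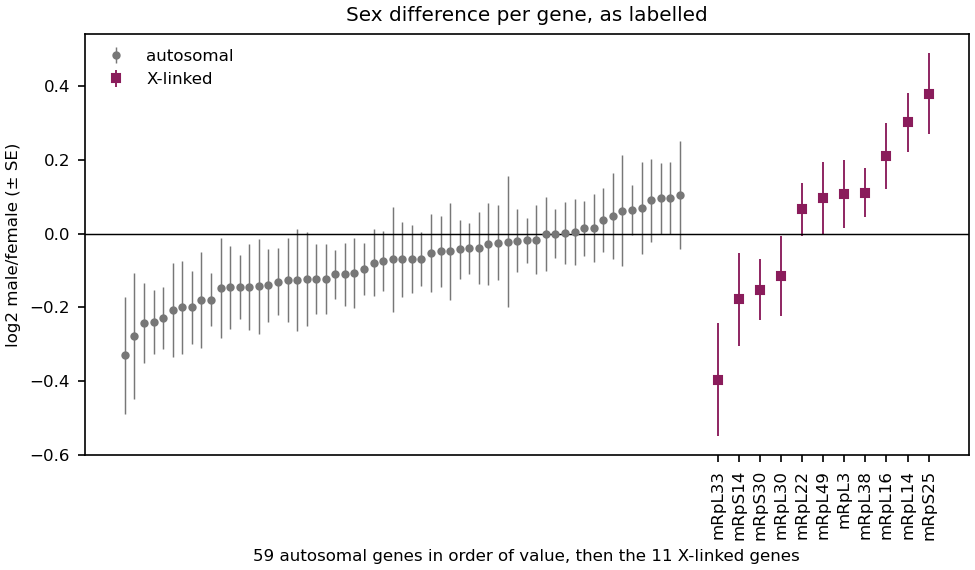
Log2 difference of males against females for each of the 70 genes in the fit of 12 samples, with bars of 1 SE; 59 autosomal genes in order of value on the left and the 11 X-linked genes, named, on the right. X-linked genes run from mRpL33 at −0.40 to mRpS25 at 0.38, and 7 of them lie above 0.

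mRpS25, an X-linked small subunit protein (X:14582136-14582982, minus strand) with no bacterial counterpart, had the largest male excess among the 70 genes. Its level was 16.1, 18.4 and 20.5 CPM as the lowest, median and highest of 6 females, and 18.6, 23.1 and 32.8 CPM in 6 males. The ranges overlap, and the 3 highest males were LPS SD2, the library labelled LPS SD3 and HPS SD2. The difference was 0.38 ± 0.11 (edgeR adjusted p = 0.105), and without the 2 libraries of doubtful strain it was 0.45 ± 0.11 (edgeR adjusted p = 0.0202), the 1 member called among those 10 samples, where 7.72% of all genes and 16.9% of X-linked and 5.91% of autosomal genes were. It was also called, with mRpL16, when the library labelled male LPS SD6 alone was left out.

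mRpL14, which lies where the large meets the small subunit (X:2343997-2344649, minus strand), was at 11.5, 13.4 and 14.4 CPM in females and 13.6, 16.0 and 19.1 CPM in males. The ranges overlap, with 5 males above every female, a difference of 0.30 ± 0.08 (edgeR adjusted p = 0.0791). mRpL33, a short protein near the tRNA exit site (X:4321764-4322231, minus strand), went the other way, with 10.9, 13.9 and 16.8 CPM in females and 6.60, 10.5 and 12.6 CPM in males. The difference was −0.40 ± 0.15 (edgeR adjusted p = 0.219) and the ranges overlap. Its lowest sample, male HPS SD3, was among the shallowest.

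Of the other X-linked members, mRpL16, which helps place the tRNA in the active centre, differed by 0.21 ± 0.09, mRpL38 by 0.11 ± 0.07, mRpL3, which lies near the peptidyl transferase centre, by 0.11 ± 0.09, mRpL49 by 0.10 ± 0.10 and mRpL22, a tunnel protein, by 0.07 ± 0.07. mRpL30 differed by −0.11 ± 0.11, mRpS30, whose human counterpart sits in the large subunit despite its name, by −0.15 ± 0.08, and mRpS14 by −0.18 ± 0.13. Their edgeR adjusted p ran from 0.265 to 0.706. Among autosomal members the smallest p belonged to mRpS23 (−0.24 ± 0.09, edgeR adjusted p = 0.186) and to mRpS29, the GTP-binding protein known in human cells as death-associated protein 3 (−0.23 ± 0.08, edgeR adjusted p = 0.189). mRpS29 was at 26.0, 28.1 and 30.6 CPM in females and 19.2, 24.7 and 26.2 CPM in males, ranges that overlap at their edge.

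The sign depended on the pair of samples. On LPS, the median of the 70 genes was higher in males by 0.15 in SD2 and by 0.15 for the library labelled male LPS SD3, and the difference was −0.29 for the library labelled male LPS SD6. On HPS it was −0.16 in SD2, −0.20 in SD3 and −0.05 in SD6. In each of the 6 pairs the median of the X-linked members lay above that of the autosomal members. On HPS they were −0.06 and −0.18 in SD2, −0.09 and −0.23 in SD3 and 0.12 and −0.06 in SD6. On LPS they were 0.34 and 0.13 in SD2, 0.28 and 0.14 by the SD3 label and −0.21 and −0.30 by the SD6 label. Over all X-linked and all autosomal genes the medians lay between −0.04 and 0.03 in every pair. There the X-linked one was higher in some pairs and lower in others. The same 11 genes recur in each pair, so the pairs are not independent.

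Related lists are set beside these sex differences. Among the cytosolic ribosomal protein genes 72 of 78 were below 0 in males, with a median of −0.11 and 1 called. The called gene, RpLP0-like (−0.32 ± 0.07, edgeR adjusted p = 0.0444), is in this list by its symbol, which names it as like a ribosomal protein and not as one. Among oxidative phosphorylation subunits 59 of 70 were below 0, with a median of −0.09 and 0 called. The coactivator gene srl was lower in males (−0.48 ± 0.10, edgeR adjusted p = 0.0329). Of the translation factors 8 of 10 were below 0, of the aminoacyl-tRNA synthetases 12 of 15 and of the upkeep genes 13 of 14, none called. Differences of the 4 ribosome-linked genes outside the rule were all below 0, tko at −0.23 ± 0.11 and bonsai at −0.13 ± 0.07. Myc differed by −0.31 ± 0.20, Dref by −0.11 ± 0.06, ewg by −0.06 ± 0.07 and Ets97D by 0.00 ± 0.12.

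Muscle markers were below 0 in males for 5 of 6 with a median of −0.32, Mhc called (−0.55 ± 0.09, edgeR adjusted p = 0.0124), and their summed level was 11455 to 16847 CPM in females and 9651 to 12713 CPM in males. Haemocyte markers were below 0 for 3 of 4 tested, with 2 called, and He was under the filter. Neuron and photoreceptor markers were above 0 for 5 of 5 each and glia markers for 4 of 5 (median 0.18), and fat body markers were below 0 for 3 of 5 (median −0.27), with 0 called in each. Without the 2 libraries of doubtful strain, 5 muscle markers were called lower and 1 higher in males (median −0.44), 2 glia markers higher, and 2 fat body and 2 haemocyte markers lower. Their part in the sex differences of the members was not tested.

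Larval diet did not change any member at the threshold. In the 12 samples 0.0997% of all genes were called and 0 of 70 members (edgeR), with 3 members at an unadjusted p below 0.05 and 0 called by DESeq2. The log2 difference of LPS against HPS was above 0 for 53 of 70 genes, with a median of 0.09 against 0.01 over all genes. It was above 0 for 9 of 11 X-linked genes with a median of 0.02 and for 44 of 59 autosomal genes with a median of 0.09. Diet medians over all X-linked and all autosomal genes are not given, so no contrast of X-linked and autosomal members is drawn. The median over 70 genes was 0.037 without the library labelled male LPS SD3 and 0.12 without the library labelled male LPS SD6. Without the 2 libraries of doubtful strain 0 members were called, 5 had an unadjusted p below 0.05, and the median was 0.08 with 55 above 0, where 1.42% of all genes were called.

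The 5 members of smallest p were mRpL14 (0.21 ± 0.08), mRpL52 (0.25 ± 0.10), mRpS18A (0.25 ± 0.11), mRpS25 (0.21 ± 0.11) and mRpL27 (0.24 ± 0.13), a protein that reaches the peptidyl transferase centre in bacteria, with edgeR adjusted p from 0.486 to 0.64. mRpL52, a mitochondria-specific protein, was at 14.7, 17.8 and 21.4 CPM as the lowest, median and highest of 6 HPS samples and at 16.6, 20.8 and 24.0 CPM in 6 LPS samples. mRpS18A, the S18 variant that sits in the large subunit in mammals, was at 10.3, 17.0 and 18.2 CPM on HPS and 16.7, 18.7 and 22.8 CPM on LPS. The ranges overlap for both genes, as they do for each of the 70 members, where 0.11% of all genes lay wholly above and 0.279% wholly below on LPS. Diet differences of mRpS18B and mRpS18C were 0.20 ± 0.16 and 0.22 ± 0.13.

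No member with a known disease or special role passed the diet test. mRpL44, an RNase III-like protein whose human gene is mutated in a cardiomyopathy, differed by −0.04 ± 0.07, mRpS22, whose human gene is mutated in a fatal infantile disorder, by −0.10 ± 0.11, and mRpS29 by −0.03 ± 0.08. mRpL12 differed by 0.02 ± 0.13, mRpL3 by −0.01 ± 0.09, mRpS16 by 0.13 ± 0.11 and mRpL55 by 0.14 ± 0.09.

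In females the diet difference centred on 0. The median over 70 genes was 0.00 with 35 above 0, and 0 genes of any kind were called, with 0 members at an unadjusted p below 0.05 and 0 called by DESeq2. The smallest p belonged to mRpL44 (−0.14 ± 0.10), mRpS31 (−0.14 ± 0.11) and mRpS7 (−0.13 ± 0.10), each with an edgeR adjusted p that rounds to 1. In males the median was 0.15 with 58 of 70 above 0. It was 0.24 with 64 above 0 and 0 called without the 2 libraries of doubtful strain, 0.30 without the library labelled male LPS SD6 alone and 0.086 without the library labelled male LPS SD3 alone. Again 0 genes of any kind were called (edgeR), with 10 members at an unadjusted p below 0.05 and 0 called by DESeq2. The share of all genes at that unadjusted p is not given, so the 10 cannot be read as an excess.

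mRpL46, a mitochondria-specific large subunit protein, was 1 of the 3 members of smallest p for diet in males. It was higher on LPS in all 3 male pairs, also in the pair labelled SD6, where 15 of 70 members were. HPS males held 15.1, 12.6 and 14.1 CPM in SD2, SD3 and SD6, and LPS males 22.5 CPM in SD2, 17.1 in the library labelled SD3 and 17.6 in the library labelled SD6. The gene was picked by its small p in this comparison, so a separation of the 3 LPS from the 3 HPS males was favoured by that choice. How many of all genes separate in this way was not counted. In females the HPS values of 20.0, 19.0 and 17.4 CPM and the LPS values of 16.3, 17.3 and 19.0 CPM were mixed. The male difference was 0.45 ± 0.12 and that of mRpS33, a small subunit protein peculiar to mitochondria, 0.33 ± 0.10, and mRpL27 followed with 0.49 ± 0.15, each with an edgeR adjusted p of 0.771. Without the library labelled male LPS SD6, mRpL27 passed the threshold (edgeR adjusted p = 0.0409), the 1 member called. The share of all genes called in that fit is not given, and the library left out belongs to the male pair in which most members were lower on LPS.

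The difference of the diet effect between the sexes was above 0 for 57 of 70 genes, with a median of 0.16 against 0.01 over all genes. The median was 0.073 without the library labelled male LPS SD3 and 0.26 without the library labelled male LPS SD6. None of the 70 passed the test of this interaction (edgeR; 0 by DESeq2), 5 had an unadjusted p below 0.05, and 0 of 10026 genes passed. It was 0.54 ± 0.17 for mRpL46, 0.60 ± 0.23 for mRpS21 and 0.36 ± 0.14 for mRpS7, each with an edgeR adjusted p that rounds to 1. Without the 2 libraries of doubtful strain, which leaves 1 male LPS sample, the median was 0.23 with 65 of 70 above 0. Among the related lists, 67 of 70 oxidative phosphorylation subunits with a median of 0.19, 65 of 78 cytosolic ribosomal protein genes with 0.12 and 5 of 6 muscle markers with 0.35 had an interaction above 0. It was above 0 for 5 of 10 translation factors (median −0.01), 4 of 15 aminoacyl-tRNA synthetases (−0.07), 6 of 14 upkeep genes (−0.05) and 3 of 12 regulators (−0.02), with 0 called in each of these lists.

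**Figure D5:**
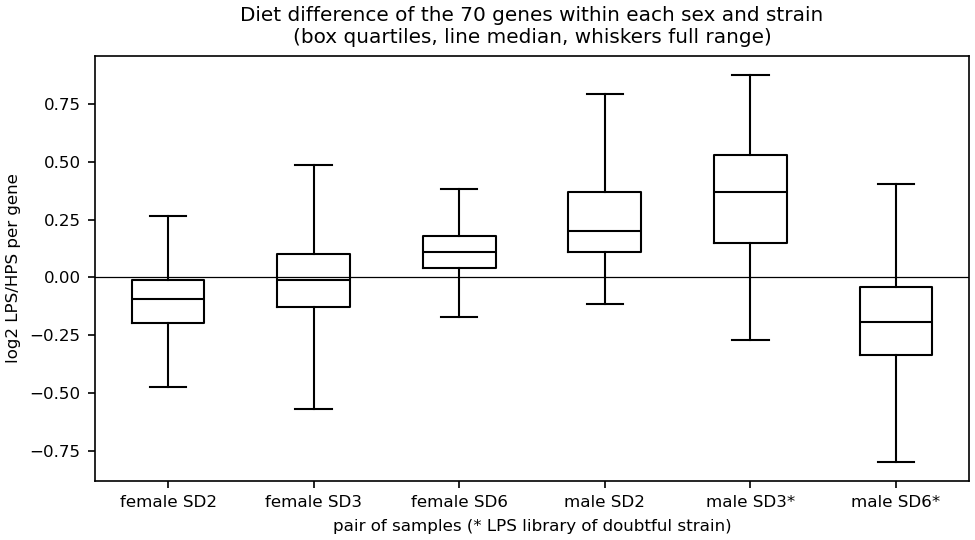
Log2 difference of LPS against HPS for the 70 genes within each sex and line as labelled; the box gives the quartiles, the line the median and the whiskers the full range, and an asterisk marks pairs whose LPS library is of doubtful strain. Medians run from −0.19 in males labelled SD6 to 0.37 in males labelled SD3.

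Within a sex and line the median diet difference was −0.09 in SD2 females, with 16 of 70 genes above 0, −0.01 in SD3 females, with 34, and 0.11 in SD6 females, with 59. In males it was 0.20 in SD2, with 65 genes above 0, 0.37 for the pair labelled SD3, with 60, and −0.19 for the pair labelled SD6, with 15. On the 500 genes that separate the lines, the pair labelled SD3 sets an HPS library placed with SD3 against an LPS library placed with SD6, and the pair labelled SD6 the reverse. The male SD2 pair is the 1 male pair whose labels were not in doubt, and its HPS sample was the only sample sequenced wholly in the smaller run. The 2 male LPS SD2 libraries, from different runs, differed in the members by a median of −0.03 on the log2 scale, with 31 of 70 higher in the second.

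Diet differences of the related lists were small. In the 12 samples the median was 0.07 for the 4 ribosome-linked genes outside the rule, 0.07 for translation factors, 0.03 for aminoacyl-tRNA synthetases, −0.01 for upkeep genes, −0.02 for regulators, −0.02 for cytosolic ribosomal proteins and 0.03 for oxidative phosphorylation subunits, with 0 called in each. tko differed by 0.09 ± 0.11, bonsai by 0.04 ± 0.07, srl by −0.07 ± 0.10, Ets97D by −0.04 ± 0.12, ewg by −0.02 ± 0.07, Myc by 0.09 ± 0.20 and Dref by 0.08 ± 0.06. Neuron markers were above 0 on LPS for 5 of 5 and muscle markers below 0 for 5 of 6, with 0 called in the 12 samples. Without the 2 libraries of doubtful strain, 3 of 6 muscle markers (median −0.30) and 2 of 5 fat body markers (median −0.10) were called lower on LPS, and 0 of 5 neuron markers were called. The muscle sum was 9651 to 16847 CPM on HPS and 9970 to 14306 CPM on LPS. Their part in the diet differences of the members was not tested.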

How the data were processed

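Heads of newly eclosed flies were profiled by single-end 75 bp sequencing of poly(A) RNA, with a stranded kit, in 13 libraries of 12 RNA pools. The deposited files hold whole-number read counts per gene, made by the authors with HTSeq 0.6.1p1 after TopHat2 2.1.0, CASAVA 1.8.2 and bcl2fastq 1.8, per the submitters' processing notes. The genome build is not given in the sources used here. Symbols, chromosome arms, exon lengths and coordinates were taken from the Ensembl annotation of BDGP6, which named 17155 of 17370 genes, and 96 spike-in and 5 summary entries were left out. Reads outside any gene were 2.93% to 4.96% of a library in the larger run and 10.4% to 14.9% in the smaller run, which held the male HPS SD2 library and the second male LPS SD2 library. Reads of more than 1 gene were 2.65% to 3.91%.

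Counts were tested in R 4.3.3 with edgeR 4.0.16 (TMM scaling, quasi-likelihood F-test, filterByExpr with a minimum count of 10, Benjamini-Hochberg adjustment over all genes tested, threshold 0.05). Diet and sex were fitted on 12 samples with line as a block (7 residual degrees of freedom for the 2-factor fit), and lines on 10 samples with sex and diet (5 residual degrees of freedom). CPM are reads per 1000000 gene reads with TMM-scaled library sizes, and logs used an offset of 0.5 CPM. The fit was tested on simulated counts. DESeq2 1.42.0, other scaling, no filter, single omissions and other library choices were alternatives, and thinning to the shallowest sample was chosen after seeing the data.

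Replicate numbers in the labels are the line numbers, so a shared number marks a shared line. Deviations of same-numbered samples from their group means correlated at 0.621 to 0.807 over 12 pairs without the libraries labelled male LPS SD3 and male LPS SD6, and at −0.375 to −0.261 over the 6 pairs with one of them. The 2 libraries of male LPS SD2 differed by more than counting noise (chi-square per degree of freedom 13.0) and were summed as 1 sample.

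The members and all gene lists were chosen with earlier results of these data known. Members named with values are every X-linked gene, those past the threshold (at most 10 of smallest p, otherwise 5) in each main comparison, 3 of smallest p in each comparison within a sex and in the interaction, the 3 highest and 3 lowest per length, those that failed the filter, and genes with a special role or disease gene. Other members are named only where a count, a range or a correlation singled them out.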

Additional observations from a re-analysis of the deposited data

Results flagged for a closer look

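In 11 of 210 groups of 4 or 6 samples, 1 sample lay far from the others by Dixon's criterion, where chance flags about 1 in 20 groups. Among the 4 SD2 samples, the LPS male stood high for mRpL14, at 19.1 CPM where the nearest sample had 14.2, and for mRpS18A, at 22.8 CPM where the nearest had 18.9. In the same line the HPS male stood low for mRpL24 at 41.0 CPM (nearest 46.1), mRpL32 at 10.3 CPM (nearest 15.4) and mRpL43 at 14.3 CPM (nearest 17.9). That sample was the only one sequenced wholly in the smaller run, with 10.4% of its reads outside any gene. Among the 6 LPS samples, mRpL12 was low in the library labelled male LPS SD6, at 21.5 CPM against 34.0 in the nearest, mRpL22 was high in the SD2 male, at 38.6 CPM against 32.6, and mRpS31 stood apart in the library labelled male LPS SD3, at 28.4 CPM against 27.2. Among the 6 HPS samples, mRpS18A was low in the SD3 male at 10.3 CPM (nearest 15.7). mRpS23 was high in the HPS SD2 female at 13.0 CPM among 6 females (nearest 11.7), and mRpS29 was low in the library labelled male LPS SD6 at 19.2 CPM among 6 males (nearest 23.6).

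mRpS23 was the 1 member of 41 examined whose diet difference was below 0 in every pair of females and above 0 in every pair of males. It was −0.15, −0.03 and −0.09 in SD2, SD3 and SD6 females and 0.18, 0.22 and 0.07 in males by line label, so that the mean male difference exceeded the mean female one by 0.243. The edgeR test of this interaction gave 0.26 ± 0.16 with an adjusted p that rounds to 1, so the difference did not pass. The search was for opposite signs in either direction. How many of all genes show them was not counted, so 1 of 41 cannot be read as an excess.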

How the results depend on the processing

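Counts of members called by line moved with single samples. Leaving out 1 sample gave 3 to 23 for SD3 against SD2, 2 to 10 for SD6 against SD2 and 4 to 15 for SD6 against SD3. Unless stated, counts for altered fits, here and above, come without the share of all genes called in the same fit. They show how far the calls moved, not whether the members moved apart from other genes. With 12 samples as labelled these counts were 3, 3 and 0, and the median for SD6 against SD3 was 0.047; DESeq2 gave 3 for SD6 against SD2 and 5 for SD6 against SD3. The count by sex was 0 to 2 without 1 sample, 2 with DESeq2 and 1 without the 2 libraries of doubtful strain. For diet in males it was 0 to 1 and the median 0.086 to 0.30. The cause of these shifts was not tested.

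Small differences that passed no test changed sign. Over the single omissions, the diet difference ran from −0.053 to 0.13 for mRpL12, from −0.057 to 0.052 for mRpL3, from −0.074 to 0.000463 for mRpL44 and from −0.075 to 0.041 for mRpS29. The sex difference ran from −0.071 to 0.046 for mRpL55, from −0.11 to 0.029 for mRpS18A and from −0.091 to 0.068 for mRpS22. Without the doubtful libraries, diet differed by 0.014 for mRpL3 and 0.026 for mRpS29, and sex by 0.0051 for mRpL55 and 0.048 for mRpS22. After thinning, mRpS22 differed by sex by 0.0012. The cause was not tested.

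Leaving the replicate block (line) out of the fit changed no call: 0 members were called by diet, with a median of 0.08, and 0 by sex, with a median of −0.07. With 1 pool per combination, the residual SD of the median deviation of the members per sample was 0.13 on the log2 scale over 12 samples. It describes the spread of the members' median and does not enter the test of a single gene. Depth was lowest in the HPS SD3 samples of both sexes.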
